A study of Cyprinus carpio with 18 samples.

Results

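Between gastrulation and organ formation of the carp embryo, most tested genes of gastrula patterning, the oocyte and the germ plasm fell, and most of those of muscle, blood, heart, liver-secreted proteins, matrix and the hatching gland rose. These genes were grouped in lists chosen with earlier results of these data known, and the lists carry no test. The comparison set 3 libraries of the organ formation stage, at 20 hours post-fertilization (hpf), against 3 libraries of gastrulation, at 12 hpf, out of 18 libraries in all. All 90808 rows of the deposited count table were taken, grouped by gene biotype and by product name, and 69265 of them held enough reads to be tested. The animals were common carp (Cyprinus carpio), wild-type and of the strain named FFRC No.2, a selected line that combines Jian carp, Huanghe carp and Heilongjiang carp, and the embryos came from natural spawning, with no treatment or transgene given in the labels. Whole embryos were used, and strand-specific libraries were made after removal of ribosomal RNA. The labels state that equal amounts of RNA of a stage were pooled, and do not say that the 3 libraries of a stage came from separate spawnings. The p-values therefore measure the spread between libraries of a stage, estimated over all 18 libraries, and that spread may be technical.

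Gastrulation is the period in which the 3 germ layers are set out and the body axis is laid down by the organizer, a signalling centre that secretes antagonists of bone morphogenetic proteins (BMPs). Organ formation follows: somites form along the trunk and differentiate into muscle, the neural tube is regionalised by homeobox genes, and blood, heart, notochord, pronephros and the hatching gland appear. Through this time a fish embryo lives on yolk, whose lipids are exported by a surface layer, the yolk syncytial layer, that makes apolipoproteins.

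Of the features tested, 19468 rose (28.1%) and 13745 fell (19.8%), by edgeR's quasi-likelihood test with Benjamini-Hochberg adjustment at 0.05, and 36052 did not pass. Rises were also larger, since 11203 features rose and 3513 fell by 4-fold or more. Among 41841 protein-coding genes 13203 rose (31.6%) and 10634 fell (25.4%), and these 2 shares are the background against which the gene groups below are read. Among 27368 long non-coding RNAs (lncRNAs) 6242 rose (22.8%) and 3101 fell (11.3%). The 56 tested transcribed pseudogenes held 23 that rose (41.1%) and 10 that fell (17.9%). The split depended on samples and filter. With the 6 libraries alone 17808 of 51404 features rose and 15271 fell, with a median log2 change of 0.109. Requiring 1 CPM in 3 or more libraries, 16776 of 55727 rose and 14695 fell, with a median of 0.111. It also depended on scaling: on plain library totals 24687 features rose and 9620 fell (on TMM factors 19468 and 13745). On that scale the median log2 change of all features moved from 0.246 to 0.594. Falls were fewer on that scale in several groups: 5 in oxidative phosphorylation, 8 in pancreas and gut, 19 among heat shock proteins and 3 among lens crystallins, and further such counts stand beside their group. Median changes of lists are edgeR's, and 26 of the 37 were closer to 0 by over 1.5 times by limma on log2(RPKM + 1), with oocyte genes at -0.66 and muscle genes at 1.26.

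Depth ranged from 18982510 to 43270557 counts per gastrulation library and from 19624716 to 21170153 per organ formation library. TMM factors were 0.71 to 0.777 at gastrulation and 0.954 to 0.971 at organ formation. Libraries of a stage were distinct, with a chi-square per degree of freedom of 4.95 to 14 between any pair. Levels below are CPM, read counts scaled to the size of the library with TMM factors, with SD over n = 3 libraries. Whole embryos were sequenced, so fewer cells of a type and less RNA per cell cannot be told apart. The stage labels were checked on marker genes. The gastrula genes chrd, gsc, noto and cdx4 were higher in every gastrulation library, and the muscle genes myod1, myog and mylpfa were higher in every organ formation library. Lens crystallins, also taken as organ formation markers, were mixed: 30 rose, 6 fell and 42 did not pass. The marker list was longer, and not all of its members are given here.

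**Figure D1:**
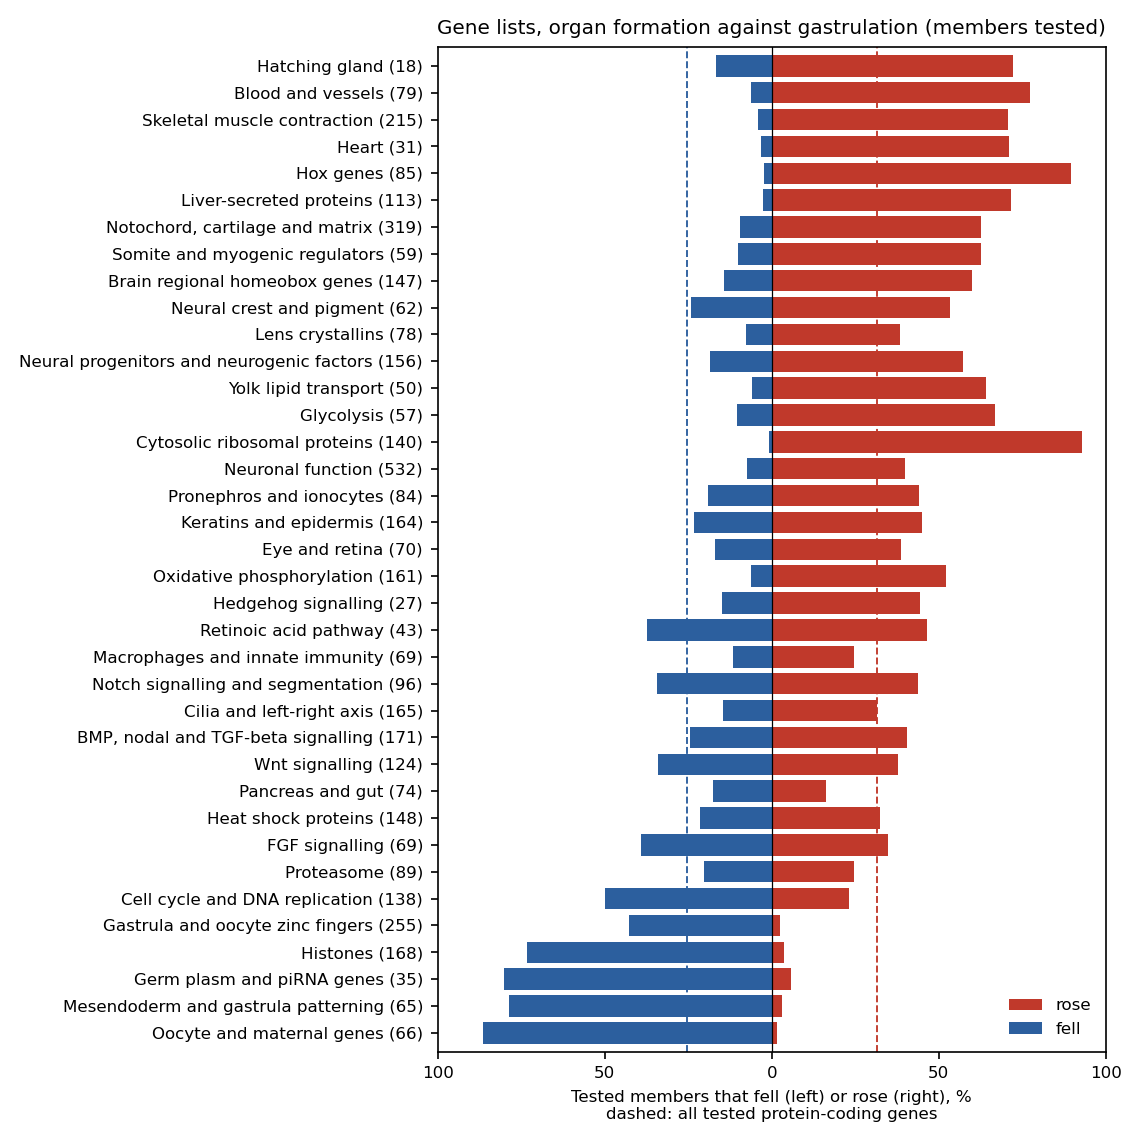
Percent of tested members that rose (red, right) or fell (blue, left) in each of 37 gene lists, with the number tested in parentheses and the shares of all tested protein-coding genes, 31.6% and 25.4%, as dashed lines. Hox genes and cytosolic ribosomal proteins had the longest red bars, at 89.4% and 92.9%, and oocyte genes the longest blue bar, at 86.4%.

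The transcripts of mesendoderm and gastrula patterning fell. Of 70 listed genes 65 were tested, 51 fell and 2 rose, with a median log2 change of -2.59 beside 0.178 for all protein-coding genes. The largest fall of any named gene was that of sox32, which specifies endoderm in zebrafish. It stood at 116, 144 and 164 CPM in the gastrulation libraries and at 0.0514, 0.0496 and 0.158 CPM in the organ formation libraries. The stages did not overlap, and the log2 change was -10.62 (SE 0.39, edgeR adjusted p = 4.5e-14). The organizer transcription factor goosecoid was present as 2 copies: gsc fell from 44.4 ± 7.9 to 0.239 ± 0.28 CPM, a log2 change of -7.51, and LOC109085361 fell from 69.9 to 0.340 CPM. Chordin, the secreted BMP antagonist of the organizer, was far more abundant in reads, with chrd at 1007, 1081 and 952 CPM and then at 21.6, 27.9 and 27.6 CPM (log2 change -5.30, SE 0.24, adjusted p = 7.7e-13). The notochord homeobox gene noto fell from 55.6 to 1.74 CPM, and cdx4, a regulator of the posterior body, fell from 357 to 47.2 CPM. The 2 members that rose were foxa1, a forkhead factor of endoderm and floor plate, from 5.00 to 23.5 CPM, and a gene named tbx21 with the product name eomesodermin-like, which stayed low at 0.285 and 1.3 CPM and was not called without the second gastrulation library.

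Some secreted signals of the gastrula fell while other members of the same pathways rose. Of 171 tested BMP, nodal and TGF-beta genes, 69 rose (40.4%) and 42 fell (24.6%). The share that fell was near the protein-coding background of 25.4%. The 171 genes summed to 3446 to 3848 CPM at gastrulation and to 2514 to 2692 CPM at organ formation. The BMP2-like ligand LOC109082902 fell in every library, from 160, 157 and 121 CPM to 3.14, 3.47 and 3.99 CPM (log2 change -5.37, SE 0.22, adjusted p = 3.2e-14). The nodal ligand ndr2 fell from 11.5 ± 1.4 to 0.120 ± 0.061 CPM. In contrast bmp5 rose from 0.138 to 12.1 CPM and a TGF-beta-1-like gene, LOC109103040, from 0.504 to 10.4 CPM. The BMP target id1, a DNA-binding inhibitor, did not pass at 315 and 318 CPM, and was called as a rise under library totals.

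Wnt genes moved both ways, with 47 of 124 rising (37.9%) and 42 falling (33.9%). Their summed level was 4701 to 5549 CPM at gastrulation and 2067 to 2221 CPM at organ formation. Their median log2 change was 0.34, and it was -0.36 and -0.52 where limma tested the 72 members with enough RPKM. Wnt-8a-like LOC109055449, a ligand that patterns ventral and posterior mesoderm, fell from 64.1 ± 5.0 to 1.07 ± 0.23 CPM, and the Frizzled receptor genes fzd7a and fzd7b fell from 999 to 240 and from 636 to 56.2 CPM. The Wnt-7a gene LOC109083114 rose from 0.117 to 13 CPM, and the secreted Wnt inhibitor sfrp5 rose from 0.160 to 47.9 CPM. Among 69 fibroblast growth factor (FGF) genes 24 rose (34.8%) and 27 fell (39.1%). The 69 genes summed to 4297 to 4815 CPM at gastrulation and to 1804 to 2017 CPM at organ formation. The FGF median of 0.11 changed sign in 6 of the alternatives tried, so no direction of the median is given for that pathway. Its receptors LOC109099356 and LOC109086707, both FGFR4, fell from 512 to 149 and from 384 to 73.0 CPM, and the FGF-10-like ligand LOC109045698, known for limb and fin buds, rose from 0.992 to 11.3 CPM.

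Enzymes of retinoic acid degradation moved in opposite directions. The 2 genes of CYP26A1, LOC109095343 and LOC109052662, fell from 264 ± 9.9 to 32.8 ± 0.25 CPM and from 234.1 ± 22 to 25.4 ± 4.5 CPM. The 2 genes of CYP26B1, LOC109094047 and LOC109084074, rose, the former going from 0.578 to 14.1 CPM and the latter from 0.0651 to 11.3. Among 43 tested genes of the pathway 20 rose (46.5%) and 16 fell (37.2%). The 43 genes summed to 2095 to 2246 CPM at gastrulation and to 846.8 to 912.5 CPM at organ formation. In Hedgehog signalling 12 of 27 genes rose (44.4%) and 4 fell (14.8%), with 2 falls under library totals. The 27 genes summed to 863.3 to 969.1 CPM at gastrulation and to 1168 to 1233 CPM at organ formation. The receptor and target gene ptch1 rose from 67.2 to 134 CPM and gli3, a transcription factor of the pathway, from 9.21 to 30.4 CPM. The ligand gene shhb fell from 20.3 ± 3.4 to 3.82 ± 0.95 CPM, and its near copy LOC109111740 from 25.3 to 4.12 CPM.

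Notch genes drive the segmentation clock and lateral inhibition in the nervous system. Of 96 tested, 42 rose (43.8%) and 33 fell (34.4%). They summed to 4160 to 4832 CPM at gastrulation and to 3171 to 3412 CPM at organ formation. The 3 Notch1-like receptors LOC109110548, LOC109049268 and LOC109062734 fell by 1.52, 1.3 and 1.43 on the log2 scale, while a further Notch1-like gene, with the symbol notch3, did not pass at 496 ± 35 and 420 ± 62 CPM. That gene was called as a fall in 4 of 16 settings: the 6 libraries alone, the 1 CPM filter, without the third gastrulation library and without the first organ formation library. Genes named for the Hes repressor family split by member, and Notch output was not measured. The HES-7-like gene her5 fell from 18.03 to 1.02 CPM. The HES-6-like gene her8.2 had no read at gastrulation and 21.2, 20.3 and 19.6 CPM at organ formation, at least 501-fold higher when 3 counts over all gastrulation libraries are taken as the limit of detection. Another HES-6-like gene, her13, rose from 0.341 to 33.0 CPM (log2 change 6.49).

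**Figure D2:**
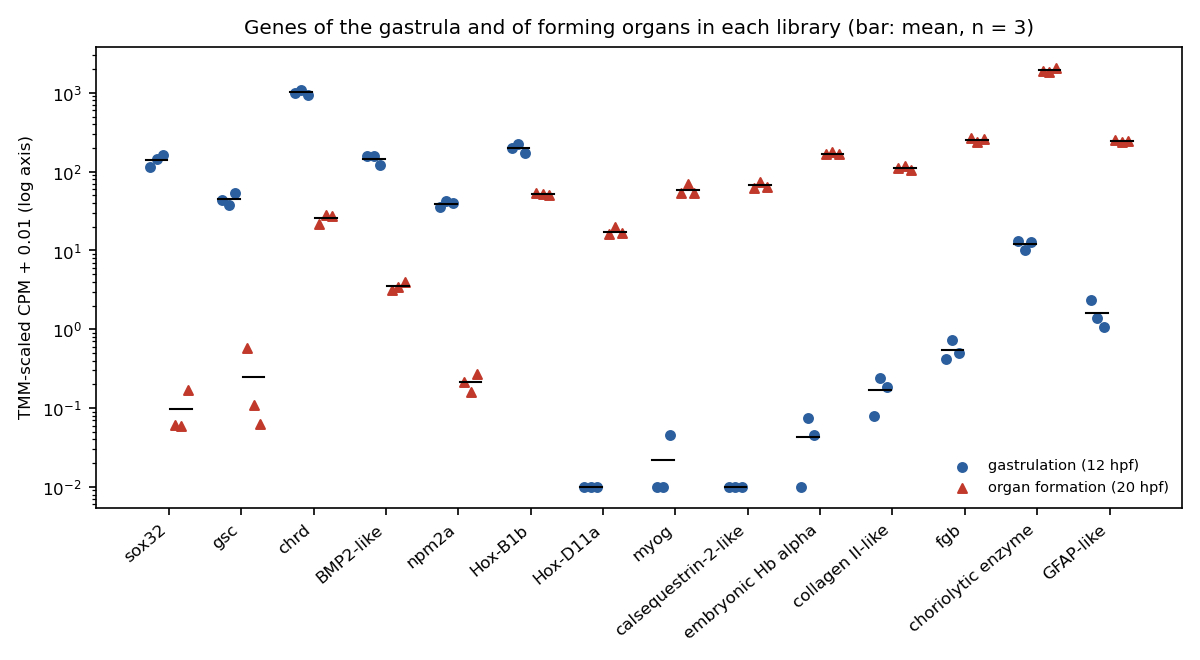
CPM plus 0.01 on a log axis in each of the 3 gastrulation libraries (blue circles) and 3 organ formation libraries (red triangles) for 14 genes, with bars at the mean. For every gene shown the 2 stages do not overlap, with sox32 going from 142 to 0.0862 CPM and the embryonic alpha hemoglobin gene from 0.0334 to 169 CPM.

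Hox genes, which encode position along the body axis, rose almost as a class: 85 of 99 were tested, 76 rose, 2 fell and 7 did not pass, with a median log2 change of 3.27. The 2 falling genes were both Hox-B1b, a gene of the anterior end of its cluster that is switched on in the gastrula in zebrafish. LOC109058403 was at 197, 224 and 174 CPM and then at 53.8, 52.5 and 50.3 CPM, and LOC109109931 at 217, 223 and 153 CPM and then at 39.7, 37.5 and 38.9 CPM. Their log2 changes were -1.93 (SE 0.23) and -2.35 (SE 0.18), with adjusted p = 6.1e-07 and 4.9e-10. These 2 genes held most of the summed Hox signal of paralogue group 1, which went from 403 to 147 CPM, although 5 of the 9 tested members of that group rose.

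Every other paralogue group was dominated by rises. In groups 2 to 8, 37 of 40 genes rose and 3 did not pass, and in groups 9 to 13, the posterior end, 34 of 36 rose and 2 did not pass. The median log2 change was lowest in group 8, at 1.74, and highest in group 11, at 6.40. All 8 genes of group 11 rose. Hox-D11a LOC109095888 had no read at gastrulation and stood at 16.1, 19.6 and 16.4 CPM at organ formation, at least 428-fold higher. All 3 genes of group 12 rose from a summed 0.313 to 25.5 CPM. Group 13 was still scarce, with a sum of 18.1 CPM over 9 genes. The Hox genes with the highest organ formation levels were LOC109111780, a Hox-A3a gene, at 61.8 ± 2.9 CPM from 1.49 ± 0.60, hoxc4a at 52.5 ± 3.2 from 13.4 ± 4.3, and the falling LOC109058403.

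**Figure D3:**
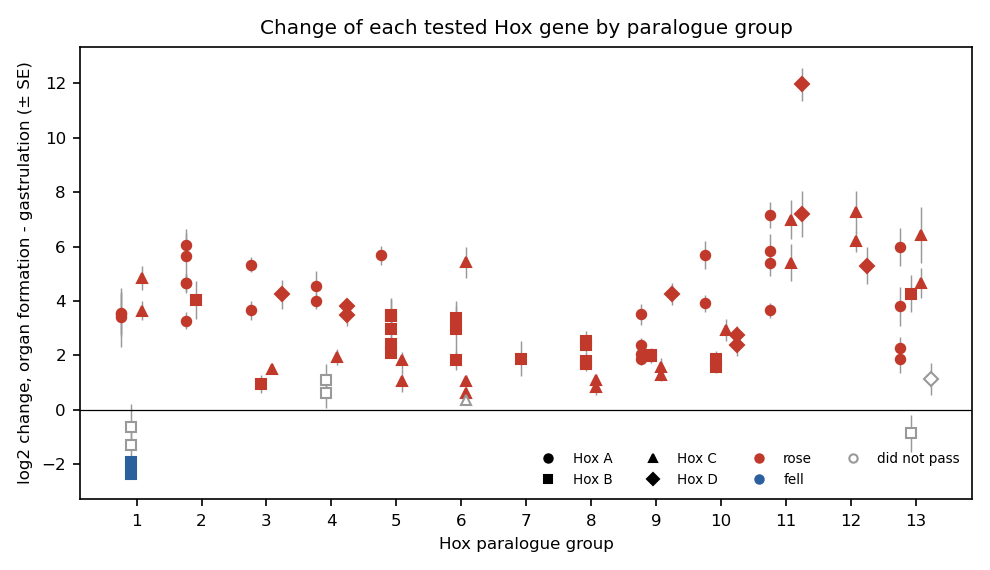
Log2 change with SE of the 85 tested Hox genes against paralogue group, with the marker shape giving the cluster and the colour the call. The 2 blue squares in group 1 are the Hox-B1b genes, at -1.93 and -2.35, and the highest point in group 11 is a Hox-D11a gene at 11.96.

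Muscle genes were among the 12 largest rises of protein-coding genes at 10 CPM or more. RNA of whole embryos does not separate skeletal from cardiac muscle. Of 260 listed genes of muscle contraction 215 were tested, 152 rose and 9 fell, and the median log2 change was 4.03. Calsequestrin-2-like LOC109094822, which binds calcium in the sarcoplasmic reticulum, had no read at gastrulation and stood at 61.8, 75.0 and 64.6 CPM at organ formation, at least 1651-fold higher. Its copy LOC109095738 went from no read to 25.02 ± 1.4 CPM. The slow troponin I gene tnni1c was at 45.2, 51.0 and 49.8 CPM, at least 1197-fold higher. The regulatory light chain LOC109098961 reached 31.1 CPM, and a fast myosin heavy chain, LOC109074077, reached 34.6, 29.9 and 23.96 CPM, both from no read. Outside the list, the kelch-like protein 41b gene LOC109054250, needed for myofibrils, was at 63.5, 62.9 and 48.1 CPM from no read. The xin gene LOC109058560, whose protein sits at muscle cell junctions, had 1 read at gastrulation and 130 CPM at organ formation. That ratio was 9589, with an exact 95% counting interval of 1721 to 378800.

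The regulators of muscle rose in most cases. Of 59 tested somite and myogenic regulators 37 rose and 6 fell, with a median of 2.08. The early determination factor Myf5, LOC109057543, fell from 16.9 ± 2.1 to 6.42 ± 0.69 CPM. The determination factor myod1 was at 27.6, 31.0 and 19.4 CPM and rose to 85.4, 111 and 87.0 CPM (log2 change 1.87, SE 0.20, adjusted p = 1e-07). The differentiation factor myogenin was all but absent before: myog had 1 read at gastrulation and 54.1, 70.7 and 53.1 CPM at organ formation, and its copy LOC109060877 rose from 0.0572 to 64.7 CPM. The MEF2C-like gene LOC109059697, a partner of these factors, rose from 0.562 to 46.5 CPM. The Pax-3-like genes LOC109100747 and LOC109055581, which mark muscle and neural crest precursors, did not pass, at 109 and 98.2 CPM and at 75.4 and 56.2 CPM, the second being called as a fall in the 6 libraries alone and by DESeq2.

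Titin, the giant spring protein of the sarcomere, carried a large part of the muscle reads and differed between libraries. Its gene LOC109090096 was at 307, 342 and 591 CPM at gastrulation and at 4108, 1734 and 1967 CPM at organ formation. The first organ formation library was the highest in that gene, yet no value of one stage reached the other (log2 change 2.65, SE 0.46, adjusted p = 0.00028). Summed over 24 titin genes the organ formation libraries held 12070, 5160 and 5860 CPM. The other 191 muscle genes summed to 7151, 7821 and 7013 CPM in the same libraries, against 659 to 690 at gastrulation, so without titin the libraries of a stage lay close together. Titin genes did not all rise, and LOC109097634 fell, from 86.4 ± 14 to 17.4 ± 2.3 CPM.

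Blood genes rose in 61 of 79 cases and fell in 5, with a median log2 change of 4.46. The embryonic alpha hemoglobin gene LOC109056219 had 3 reads in all at gastrulation and 166, 175 and 167 CPM at organ formation, a ratio of 4170 with an exact 95% counting interval of 1427 to 20230. A second embryonic alpha gene, LOC109056218, went from no read to 33.2, 38.6 and 31.6 CPM, and the alpha-1-like gene LOC109056264 from 0.0234 to 81.0 CPM. The beta gene LOC109099560 was already present at gastrulation, at 3.93 ± 0.36 CPM, and rose to 172 ± 17 CPM. The heme synthesis gene hmbsa rose from 31.6 to 101 CPM. Among the falls were both GATA2 genes, gata2 from 99.98 to 10.1 CPM and gata2a from 19.9 to 1.43 CPM, which act in early blood and in ectoderm, and a VEGF receptor 2-like gene of vessels, LOC109066966, from 93.9 to 45.6 CPM. Hemoglobin genes lie in near-identical copies, and reads may be split between them.

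Heart genes rose in 22 of 31 cases and fell in 1. The myosin light chain 4-like gene LOC109052177, an atrial light chain in mammals, had no read at gastrulation and 36.4, 39.4 and 41.99 CPM at organ formation, at least 966-fold higher. The heart and fin factor TBX5, LOC109077201, rose from 0.251 to 13.3 CPM, and TBX20, LOC109060537, from 1.43 to 13.03 CPM. GATA-4, which acts in both endoderm and heart, did not rise in either copy: LOC109065793 fell from 152 to 71.5 CPM, a call lost under library totals, the RPKM denominators and DESeq2, and LOC109111451 did not pass at 113 and 82.0 CPM. The latter was called as a fall in the 6 libraries alone, under the 1 CPM filter and without the third gastrulation library.

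Brain factors rose more often than they fell, while their summed level was lower at organ formation. Of 156 neural progenitor and neurogenic genes 89 rose and 29 fell, and of 147 brain homeobox genes 88 rose and 21 fell, with medians of 1.59 and 1.63. The progenitor genes summed to 5044 to 5635 CPM at gastrulation and 3510 to 3625 CPM at organ formation, and the homeobox genes to 2090 to 2363 and 1457 to 1595 CPM. The POU factor LOC109063402 (POU3F3-B), which marks the developing brain, rose from 0.259 ± 0.11 to 102 ± 5.7 CPM, a log2 change of 8.48 (SE 0.24, adjusted p = 1.3e-14). Engrailed-2b, LOC109111813, a marker of the midbrain-hindbrain boundary, rose from 0.0931 to 16.02 CPM. Glial fibrillary acidic protein-like LOC109063688, expressed by radial glia, was at 2.32, 1.40 and 1.05 CPM and then at 250, 240 and 246 CPM. The ZIC2-like genes LOC109061652 and LOC109069274 fell from 869 to 84.3 and from 592 to 40.8 CPM, and the IRX1-like gene LOC109051949 from 333 to 16.5 CPM. The progenitor gene sox19a kept high levels, at 478 and 288 CPM, and its fall of 0.73 on the log2 scale was not called on the scale of the RPKM denominators or by limma with either pseudocount. Genes of neuronal function rose in 213 and fell in 40 of 532 cases, with a median of 0.97.

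Of 70 eye and retina genes 27 rose (38.6%) and 12 fell (17.1%), beside 31.6% and 25.4% of protein-coding genes. Their summed level was lower at organ formation, at 388 to 420 CPM against 495 to 551 CPM at gastrulation. Members of one family moved in opposite directions. The retinal homeobox gene Rx3, LOC109045130, needed for the optic vesicle in zebrafish and medaka, fell from 47.0, 51.0 and 39.5 CPM to 3.03, 3.17 and 4.26 CPM. The Rx1 gene rx1 rose from 0.192 to 23.1 CPM. Of the SIX6-like genes, LOC109061593 fell from 98.1 ± 4.9 to 0.911 ± 0.50 CPM, while six6b had 1 read at gastrulation and 11.7 ± 3.2 CPM at organ formation. Lens crystallins rose in 30 of 78 tested genes (38.5%) but were scarce at this stage. The 78 genes summed to 26.03 to 30.2 CPM at gastrulation and to 54.6 to 60.5 CPM at organ formation.

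Neural crest and pigment genes rose in 33 of 62 cases (53.2%) and fell in 15 (24.2%), the latter share near the protein-coding background of 25.4%. Their summed level was lower at organ formation, at 1013 to 1101 CPM against 1927 to 2278 CPM at gastrulation. Pigment genes were among the rises: the melanosome protein PMEL gene LOC109066741 had 1 read at gastrulation and 28.0, 25.3 and 28.1 CPM at organ formation, tyrosinase LOC109082593 rose from 0.520 to 18.6 CPM, and dopachrome tautomerase LOC109052004 from 0.252 to 10.8 CPM. Among the falls, the snail gene LOC109098523, a repressor of epithelial genes, went from 345 to 67.6 CPM. The AP-2 gamma gene LOC109092391 fell from 379 to 88.6 CPM.

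Genes of notochord, cartilage and extracellular matrix rose in 200 of 319 cases and fell in 30, with a median of 2.30. The collagen II gene LOC109061930, a main matrix protein of notochord sheath and cartilage, was at 0.0682, 0.228 and 0.176 CPM and rose to 110, 118 and 106 CPM (log2 change 9.28, SE 0.21, adjusted p = 1.1e-15). The collagen XXVIII genes col28a2a and LOC109095809 rose by 8.68 and 8.60 on the log2 scale. Laminin beta-1 and fibronectin, the matrix on which gastrula cells move, went the other way: lamb1a fell from 3382, 3503 and 2469 CPM to 644, 712 and 686 CPM, and fn1a from 364 ± 23 to 59.2 ± 12 CPM.

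Of 164 tested keratin and junction genes, listed for the epidermis, 74 rose (45.1%) and 38 fell (23.2%). The list name does not place these transcripts in a tissue. Among the falls, keratin 18 LOC109047943 went from 2672 to 661 CPM and keratin 8 LOC109074705 from 1797 to 724 CPM. Among the rises, krt4 went from 509 to 1109 CPM and krt18b from 0.275 to 76.0 CPM. Genes of the pronephros and of ionocytes rose in 37 of 84 cases and fell in 16, or in 10 under library totals. The 2 named genes of the pronephric factor HNF1-beta moved in opposite directions: LOC109103750 fell from 167 ± 15 to 21.6 ± 2.4 CPM and the HNF1-beta-B-like gene LOC109087170 rose from 0.0434 to 17.3 CPM.

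Hatching enzymes, astacin proteases that dissolve the egg envelope, were among the most abundant transcripts of organ formation. Of 25 hatching gland genes 18 were tested, 13 rose and 3 fell. Their summed level was 28.4 to 34.3 CPM in the gastrulation libraries and 3923 to 4397 CPM in the organ formation libraries. The high choriolytic enzyme LOC109047084 was at 13.2, 10.03 and 12.8 CPM and then at 1918, 1858 and 2070 CPM, with little spread within either stage. Its log2 change was 7.35 (SE 1.45, edgeR adjusted p = 0.0016), with an SE that takes the spread over all 18 libraries. Per transcript length it ranked 9th of all protein-coding genes at organ formation, at 455 ± 43 RPKM. These genes lie in near-identical copies, and their split of reads is uncertain.

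Most tested genes of yolk lipid transport, and most of those listed as liver-secreted proteins, rose. The list names do not place these transcripts in a tissue. Of 50 yolk lipid genes 32 rose and 3 fell. Apolipoprotein B-100 LOC109112641, the core protein of large lipoproteins, was at 592, 708 and 810 CPM and rose to 9413, 6490 and 6776 CPM (log2 change 3.43, SE 0.36, adjusted p = 1.5e-06), highest in the library that was also highest in titin. The 3 falls were apolipoprotein Eb LOC109058451, from 5561, 6010 and 5229 CPM to 1410, 1678 and 1630 CPM, and 2 genes of microsomal triglyceride transfer protein, which loads lipid onto apolipoprotein B, LOC109108977 from 1454 to 295 CPM and LOC109108963 from 1138 to 202 CPM. Of 113 liver-secreted proteins 81 rose and 3 fell, with a median of 3.10. The iron carrier transferrin, tfa, rose from 346 ± 57 to 1862 ± 53 CPM. Fibrinogen, the clotting protein, rose in all chains named: fgb was at 0.409, 0.716 and 0.492 CPM and then at 266, 237 and 258.5 CPM, fga rose from 0.310 to 182 CPM and fgg from 13.7 to 401 CPM. The antimicrobial peptide gene leap2 went from no read to 35.1, 38.7 and 37.5 CPM.

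In contrast to the liver-secreted genes, the pancreas and gut list showed 12 rises and 13 falls in 74 tested genes, each share under the protein-coding background. The endoderm factor HNF4-alpha fell in both copies, LOC109054122 from 163 to 18.8 CPM and LOC109054127 from 95.4 to 18.9 CPM. The hepatic and lymphatic factor prox1a rose from 1.10 to 28.7 CPM. Of 69 macrophage and innate immunity genes 17 rose (24.6%) and 8 fell (11.6%), each share again under the protein-coding background. The receptor gene csf1r, of macrophages and of yellow pigment cells, rose from 3.41 ± 0.48 to 20.8 ± 1.6 CPM, and a lysozyme C-like gene, LOC109090952, from 0.0109 to 11.9 CPM.

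Ribosomal proteins rose together. Of 140 tested cytosolic ribosomal protein genes 130 rose and 1 fell, and the median log2 change was 1.43. The falling gene was rps8b, at 0.694 and 0.188 CPM, a call lost in 7 of the 12 settings that tested it, among them both scalings on library size and leaving out any 1 of 5 libraries, all but the second gastrulation library. The ribosomal protein genes together lay between 18490 and 20440 CPM in the gastrulation libraries and between 50550 and 51760 CPM in the organ formation libraries. LOC109064818, for L3, was at 432, 744 and 684 CPM and then at 2057, 2323 and 2163 CPM, and rplp2 rose from 8.16 to 68.2 CPM (log2 change 3.05). Oxidative phosphorylation genes rose in 84 of 161 cases and fell in 10, and glycolysis genes in 38 and 6 of 57. The enolase gene eno1b fell from 32.9 ± 2.0 to 1.45 ± 0.19 CPM, while the alpha-enolase LOC109047590 rose from 0.590 to 11.4 CPM. Proteasome genes rose in 22 (24.7%) and fell in 18 (20.2%) of 89 cases, each share under the protein-coding background. Their median was 0.01, and under library totals the counts were 42 and 7. Heat shock proteins rose in 48 (32.4%) and fell in 32 (21.6%) of 148 cases. Genes of cilia and the left-right axis rose in 52 (31.5%) and fell in 24 (14.5%) of 165. Both rise shares were near the protein-coding background of 31.6%.

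Most tested histone genes fell, and cell cycle genes fell more often than they rose. Of 168 tested histone genes 123 fell and 6 rose, with a median of -0.81 and, under library totals, 77 falls, 9 rises and a median of -0.45. The most abundant histone H2A gene, LOC109051002, fell by 0.62 on the log2 scale, from 6454 to 4192 CPM, a call that was lost under library totals, the RPKM denominators and both limma tests. H2AX LOC109090526, a variant that is phosphorylated at DNA breaks, fell from 2184, 2572 and 2049 CPM to 419, 411 and 416 CPM. Of the 6 that rose, 4 coded for H3.3, the replacement variant made outside S phase, among them LOC109090331, from 17.2 to 40.7 CPM; the others were a macro-H2A.2-like gene and the centromeric H3. Copies of a histone are near identical, and reads may be split between them.

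Of 138 cell cycle and replication genes 69 fell and 32 rose, with 53 falls and 45 rises under library totals. Their median log2 change was -0.38. It was -0.02 under library totals and -0.05 on the RPKM denominators, so a fall of the group depended on scaling. The topoisomerase gene top2a fell from 1084 ± 100 to 505 ± 32 CPM. The germline and early embryonic cyclin gene ccna1 fell from 47.0 ± 16 to 1.59 ± 0.45 CPM and ccne1 from 198 to 19.9 CPM. The growth-factor-dependent cyclin gene ccnd2a rose from 4.05 to 19.4 CPM.

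RNA processing factors fell in families grouped by the first words of the product name, a grouping made after the values were seen. All 15 tested pre-mRNA-processing factors but 1 fell, as did 17 of 19 THO complex subunits, which couple transcription to RNA export. Heterogeneous nuclear ribonucleoproteins fell in 38 of 47 cases and serine/arginine-rich splicing factors in 24 of 32. The hnRNP U-like gene LOC109061092 was at 1772, 1843 and 1476 CPM and then at 294, 354 and 305 CPM, a log2 change of -2.42 (SE 0.13, adjusted p = 3.3e-12). Splicing factor 3B subunit 1, LOC109096741, fell from 1303 to 393 CPM. Among the families that rose were protocadherin gamma-A genes, neuronal adhesion proteins, in 26 of 32 cases, and ADAMTS proteases, which cut matrix proteins, in 53 of 68. ADAM proteases, named disintegrin and metalloproteinase, rose in 16 and fell in 3 of 28 cases. In the ADAMTS family the most abundant member, ADAMTS18-like LOC109093410, fell from 187 to 20.8 CPM.

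Oocyte and germ plasm transcripts fell. Of 66 tested oocyte genes 57 fell and 1 rose, and the median was -3.43. The oocyte chromatin protein gene npm2a was at 35.5, 42.3 and 39.8 CPM and then at 0.206, 0.149 and 0.263 CPM. The egg envelope gene LOC109058316 (zona pellucida 3-like) fell from 35.5 to 0.545 CPM. Germ plasm and piRNA genes, which act in the germ cells, fell in 28 of 35 cases and rose in 2, both of them low. The vasa gene ddx4 was at 87.99, 67.6 and 53.6 CPM and fell to 4.58, 3.22 and 3.84 CPM (log2 change -4.16, SE 0.20, adjusted p = 3.9e-13). Zinc finger genes named for their Xenopus gastrula and oocyte homologues fell in 109 of 255 cases and rose in 6, and under library totals 65 fell and 12 rose.

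**Figure D4:**
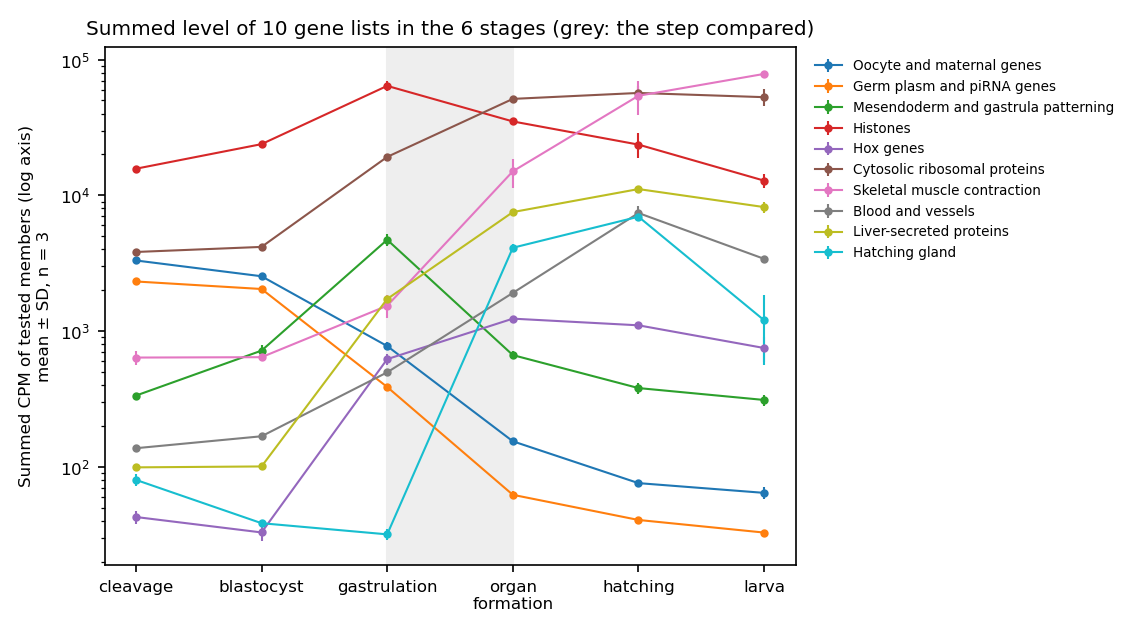
Summed CPM of the tested members of 10 gene lists in the 6 stages, as mean and SD of 3 libraries on a log axis, with the step from gastrulation to organ formation in grey. Mesendoderm and gastrula patterning genes and histones are at their highest at gastrulation, and hatching gland genes climb in the grey step from 31.8 to 4110 CPM.

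Several of the largest falls lay outside these lists. NEURL1-like LOC109074496, a ubiquitin ligase whose fly homologue acts on Notch ligands, was at 735, 843 and 691 CPM and then at 1.75, 1.29 and 1.68 CPM (log2 change -8.91, SE 0.27, adjusted p = 1e-15). The gene fbxo32, another ubiquitin ligase subunit known from muscle atrophy, fell from 347 ± 54 to 0.926 ± 0.28 CPM. The 3 arachidonate 5-lipoxygenase-like genes LOC109056697, LOC109099243 and LOC109108493, whose enzyme starts leukotriene synthesis, fell by 8.24, 7.74 and 7.62 on the log2 scale. They stood at 68.3, 139 and 463 CPM at gastrulation. The small heat shock protein gene LOC109079942 (HSP beta-1-like), abundant in muscle and heart, belongs by its name with the heat shock proteins above. It rose from 0.0586 to 92.7 CPM.

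A switch from 0 to a clear level was more frequent than the reverse. There were 225 features with no read in any gastrulation library and 1 CPM or more in each organ formation library, 128 of them protein-coding and 96 lncRNAs. In the other direction there were 24, of which 9 were protein-coding and 15 lncRNAs. The gastrulation stage was the deeper one, at 98851162 summed counts against 61001374.

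lncRNAs held 8.63% to 10.5% of counts at gastrulation and 10.9% to 12.3% at organ formation. Those known only from the authors' StringTie assembly, 23394 tested, rose in 22.9% and fell in 11.2% of cases, and those with an NCBI gene ID, 3974 tested, in 22.3% and 11.9%. The largest rise was that of MSTRG.57110, with no read at gastrulation and 31.7, 31.7 and 33.8 CPM at organ formation, at least 797-fold higher. MSTRG.47124 went from no read to 24.2 CPM, and MSTRG.33988, MSTRG.33163 and MSTRG.22165 from no read to 14.6, 10.6 and 10.2 CPM. The largest fall was that of MSTRG.57194, from 13.03, 17.1 and 16.8 CPM to 1 read in all, a ratio of 948 with an exact 95% counting interval of 170 to 37480. Next came MSTRG.7051, MSTRG.19976 and MSTRG.18632, with log2 changes of -7.92, -7.84 and -6.96, and MSTRG.79782, which fell from 56.2 to 0.495 CPM. The files give these transcripts no name or function.

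Many product names are carried by 2 carp genes. There were 3869 such pairs with both copies tested, and the copies changed differently in 818 of them (21.1%) by edgeR's test of differential usage. Both copies rose in 747 pairs and both fell in 737. One copy rose and the other fell in 206 pairs, of which 201 were also called different. In 1354 pairs only 1 copy was called, and in 825 neither was. Among single protein-coding genes 31.6% rose and 25.4% fell. Pairs of unrelated genes were not counted, so these counts do not show how far copies moved together. The median absolute difference between copies was 0.70 on the log2 scale. A shared product name does not by itself show how the 2 genes are related.

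Among the 490 differing pairs with both copies at 5 CPM or more at one of the stages, the widest difference was between nmt1b and nmt1a, genes of an N-myristoyltransferase, which attaches a fatty acid to proteins. The copy nmt1b had 1 read at gastrulation and 18.6, 18.9 and 17.2 CPM at organ formation, while nmt1a stood at 55.0 ± 7.6 and 53.6 ± 6.4 CPM and did not pass. Under library totals nmt1a was called as a rise, of 0.32 on the log2 scale. Of the Na,K-ATPase alpha-1 genes, LOC109060283 rose from 0.0434 to 12.6 CPM, and LOC109060282 fell from 204 to 154 CPM, a change of -0.41 that was lost under library totals, the RPKM denominators, both limma tests and without the second gastrulation library. The ammonium transporter Rh type C-like 2 genes, which act in ionocytes, crossed over: LOC109051092 rose from 2.11, 2.47 and 2.32 CPM to 15.5, 21.2 and 18.6 CPM, and rhcgb fell from 4.16, 5.53 and 6.65 CPM to 0.360, 0.446 and 0.578 CPM (adjusted p of the difference 5.7e-16). The FERM and PDZ domain-containing 1-like genes LOC109068803 and LOC109091158 also crossed, from 0.494 to 5.08 and from 37.7 to 3.64 CPM.

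**Figure D5:**
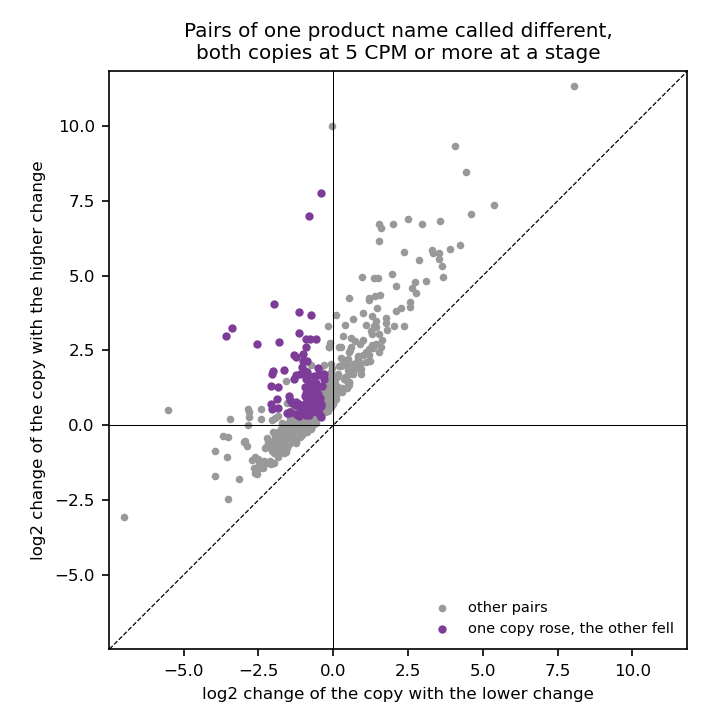
Log2 change of the copy with the higher change against that of the copy with the lower change, for the 490 pairs of one product name called different with both copies at 5 CPM or more at a stage. The 126 purple points are pairs in which one copy rose and the other fell, and the highest of the points near 0 on the horizontal axis is the nmt1b and nmt1a pair, at 9.99 and -0.04.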

How the data were processed

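Per the file headers, the deposited table holds whole-number read counts and RPKM values (read counts scaled to transcript length and library size) per feature for 18 libraries, and the 18 single-library count files equal its count columns. HISAT2, StringTie 1.3.3b, featureCounts and edgeR are named in the submitters' processing notes. Not given in the sources used here: the genome build, and how reads mapping to several genes were treated. Raw counts entered edgeR 4.0.16 (R 4.3.3) after filterByExpr, with TMM factors, 1 coefficient per stage over all 18 libraries, and the quasi-likelihood F test of organ formation minus gastrulation, with Benjamini-Hochberg adjustment over 69265 features at 0.05. SE is the log2 change over the square root of F. Where a stage had no read, the bound takes 3 counts summed over the stage; counting intervals are exact, at 95%, and cover counting error only. Copy pairs were tested with diffSpliceDGE. Pairs are ranked and plotted where both copies reach 5 CPM at a stage. Settings were tested on simulated data in which few features changed between the stages, so that test cannot judge the scaling of these data.

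Gene lists (37, from symbols and product names) and members were chosen with earlier results of these data known, and a few members whose names belong to other genes were dropped after values were seen; lists carry no test. Symbols for 36765 gene IDs came from the RefSeq gene table of assembly ASM1834038v1, used for names only, and can disagree with the deposited product. Genes were named by rule: the 12 largest rises and falls at 10 CPM or more, 5 lncRNAs each way, the 4 most abundant, 3 largest rises and 3 largest falls of each list, their copies, and stage markers; families of splicing and adhesion genes, and members running against a list, were added after the values were seen. Alternatives were other samples, scalings, filters, DESeq2 1.42.0, limma 3.58.1 on log2(RPKM + 1) and log2(RPKM + 0.1), a replicate block and leaving out each library.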

Additional observations from a re-analysis of the deposited data

How the results depend on the processing

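Leaving out 1 library at a time gave 15938 to 18028 features that rose and 12274 to 13527 that fell, 11214 to 12221 protein-coding genes that rose and 9730 to 10665 that fell, 4695 to 5786 lncRNAs that rose and 2513 to 2923 that fell, and 557 to 625 copy pairs that changed differently. Limma on log2(RPKM + 1), over the 34454 features with enough RPKM, gave 12288 features that rose and 7491 that fell, 6039 protein-coding genes that fell, and 2499 lncRNAs that rose and 1446 that fell; with a pseudocount of 0.1 the values were 7912 features and 6397 protein-coding genes that fell, and 2827 lncRNAs that rose and 1509 that fell. Fewer features entered those tests. On the RPKM denominators 9156 features and 2035 lncRNAs fell, and on library totals 2054 lncRNAs fell; these scalings raise the median log2 change to 0.558 and 0.594. With the replicate block 18671 features rose and 13268 fell, and 767 pairs differed. The labels do not say that replicate numbers pair the samples. Deviations of same-numbered libraries correlated at 0.033, 0.151 and -0.004, and those of differently numbered ones at -0.178 to 0.107. With 3 libraries per stage these values cannot decide whether the numbers pair the samples.

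List medians depended on the test: limma on log2(RPKM + 1), where the pseudocount shrinks changes of low genes and fewer genes are tested, brought 26 of 37 medians closer to 0 by over 1.5 times. It gave -0.66 for oocyte genes, -1.57 for mesendoderm, 1.26 for muscle, 1.08 for myogenic regulators, 1.34 for blood, 1.27 for Hox, 0.51 for neural progenitors, 0.37 for brain homeobox genes, 0.12 for neuronal function, 0.75 for matrix and 1.55 for liver-secreted proteins. Without a filter 10 medians came closer to 0 by as much, and on library totals 12 moved further from 0. Of the 37 medians, 3 changed sign. Wnt went to -0.36 and -0.52 under the 2 limma tests. FGF went to -0.28 in the 6 libraries alone, -0.34 under the 1 CPM filter, -0.69 and -0.88 under limma, and lay between -0.25 and 0.3 without 1 library. The proteasome went to -0.10 without a filter, -0.02 under the 1 CPM filter, and lay between -0.11 and 0.01 without 1 library. Of 155 genes named, 144 kept their direction and call under every setting run. Many of them were named for large called changes in these same data, so this count does not extend to the other features. The gene nmt1a changed by 0.32 on library totals and was called as a rise there. The cause was not tested.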
